A study of Homo sapiens with 12 samples.

Results

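The regions described here had a called peak of trimethylated histone H3 lysine 27 (H3K27me3) in the first biological replicate of both treatments and no called peak in either library of the second replicate. The study used HepG2/C3A, a human hepatocellular carcinoma cell line of epithelial form, kept with sodium succinate at 10 mM or as control, which the design text calls a vehicle, in both cases for 48 hours. CUT&Tag, in which an antibody directs a transposase to chromatin and the released fragments are sequenced, was run with 0.5 µg of an H3K27me3 antibody or 1 µg of an antibody against succinyllysine (Ksu) regardless of the protein that carries it. Each antibody and treatment had 2 libraries with files, so that 4 H3K27me3 and 4 Ksu peak lists were analysed, and the 4 IgG samples were not analysed here. All groups share this single cell line, and no group differs in genotype.

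The members were chosen from the H3K27me3 peaks themselves. Overlapping peaks of the 4 H3K27me3 lists on chromosomes 1 to 22, X and Y were merged, which gave 16111 regions. A region was a member where peaks of control replicate 1 and of succinate replicate 1 overlapped it by at least 1 bp and no peak of control replicate 2 or succinate replicate 2 did. This left 2873 regions, 17.8% of all regions and 27.5 Mb, or 11.5% of the length of all regions. They are called replicate 1 regions below, and are set beside the 4169 regions with peaks in all 4 libraries (shared regions, 144 Mb) and the 7110 with a peak in control replicate 1 alone. Because H3K27me3 peaks chose them, every H3K27me3 value of these regions is a description without a test.

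H3K27me3 is written by Polycomb repressive complex PRC2, through its catalytic subunit EZH2 or EZH1, and is removed by the JmjC demethylases KDM6A and KDM6B. It spreads over silent genes, in particular those of developmental transcription factors and of lineages other than the cell's own, and broad domains and CpG-rich promoters are its best known sites. JmjC enzymes use alpha-ketoglutarate and release succinate, and succinate can inhibit them. The series asks how succinylation bears on these enzymes and on repressive chromatin. Genes that a hepatocyte-derived cell uses should lack the mark. None of 12 liver genes, such as ALB, APOA1 and TTR, and none of 10 housekeeping genes carried an H3K27me3 peak in any library. Most genes lack it as well: of genes with an annotated start, 84.2% had one outside every H3K27me3 region. The listed genes are also short, with median lengths of 9174.5 and 6533 bp against 24115 bp for all genes. Little can therefore be read from these counts. Among blood cell genes, CD3E was overlapped by peaks in every library, with 54.7% and 17.0% of the gene covered in control and 100% in both succinate libraries, and PTPRC in none.

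The gene starts shown first are those of the genes in the lists described below that began inside a replicate 1 region, taken by the signal rank of that region. They let the CpG content of such starts be seen beside that of 2 developmental transcription factors in shared regions. Each is the 300 bases from 250 before to 50 after an annotated start, from RefSeq on GRCh38.p14, written 5′ to 3′ on the gene's strand, with the CpG dinucleotides (CG) in capitals. IL16 encodes a cytokine that attracts T cells (chr15:81296720-81297019, plus strand), FLRT1 a leucine-rich adhesion protein (chr11:64035681-64035980, plus), SLC34A2 a sodium-phosphate cotransporter (chr4:25655601-25655900, plus), GRIN2D an NMDA glutamate receptor subunit (chr19:48393418-48393717, plus), SLC39A11 a zinc transporter (chr17:73092639-73092938, minus) and SLC35A4 a member of the nucleotide sugar transporter family (chr5:140564578-140564877, plus).
IL16: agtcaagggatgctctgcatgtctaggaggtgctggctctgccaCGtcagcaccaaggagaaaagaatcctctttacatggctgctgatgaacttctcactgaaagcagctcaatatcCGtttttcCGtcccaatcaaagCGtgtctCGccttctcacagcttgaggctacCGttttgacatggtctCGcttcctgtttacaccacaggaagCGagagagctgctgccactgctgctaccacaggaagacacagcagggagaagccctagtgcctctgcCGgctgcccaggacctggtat
FLRT1: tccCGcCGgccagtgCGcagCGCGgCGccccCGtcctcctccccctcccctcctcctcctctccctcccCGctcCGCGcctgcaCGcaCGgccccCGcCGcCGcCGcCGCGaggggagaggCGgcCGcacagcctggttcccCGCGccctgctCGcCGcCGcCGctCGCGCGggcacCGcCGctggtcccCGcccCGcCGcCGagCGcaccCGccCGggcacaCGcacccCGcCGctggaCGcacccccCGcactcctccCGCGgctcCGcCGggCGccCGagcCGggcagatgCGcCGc
SLC34A2: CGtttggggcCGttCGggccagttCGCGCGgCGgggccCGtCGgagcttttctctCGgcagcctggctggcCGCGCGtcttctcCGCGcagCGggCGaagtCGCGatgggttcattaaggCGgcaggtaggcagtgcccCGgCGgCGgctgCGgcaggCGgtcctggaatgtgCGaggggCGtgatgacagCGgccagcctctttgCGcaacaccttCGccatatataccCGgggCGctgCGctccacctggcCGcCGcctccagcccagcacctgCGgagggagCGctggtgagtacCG
GRIN2D: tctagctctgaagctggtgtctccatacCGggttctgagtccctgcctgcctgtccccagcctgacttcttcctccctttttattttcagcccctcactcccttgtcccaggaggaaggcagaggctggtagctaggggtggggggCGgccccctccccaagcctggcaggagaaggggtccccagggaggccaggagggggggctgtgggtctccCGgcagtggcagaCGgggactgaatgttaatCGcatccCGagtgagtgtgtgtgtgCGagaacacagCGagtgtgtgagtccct
SLC39A11: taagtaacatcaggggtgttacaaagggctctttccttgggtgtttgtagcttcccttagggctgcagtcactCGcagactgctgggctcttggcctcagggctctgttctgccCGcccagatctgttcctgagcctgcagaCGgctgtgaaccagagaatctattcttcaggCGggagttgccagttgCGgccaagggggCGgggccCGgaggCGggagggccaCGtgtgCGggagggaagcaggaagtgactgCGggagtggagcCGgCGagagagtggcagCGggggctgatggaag
SLC35A4: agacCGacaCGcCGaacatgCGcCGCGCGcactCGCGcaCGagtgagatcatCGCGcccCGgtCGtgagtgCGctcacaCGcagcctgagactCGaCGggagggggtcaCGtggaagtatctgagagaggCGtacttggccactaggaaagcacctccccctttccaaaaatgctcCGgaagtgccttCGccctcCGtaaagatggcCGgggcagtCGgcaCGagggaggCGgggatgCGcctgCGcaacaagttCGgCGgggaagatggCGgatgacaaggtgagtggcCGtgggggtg

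The comparison starts lay in shared regions. RUNX3 is a Runt-domain transcription factor (chr1:24930227-24930526, minus strand) and PAX7 a paired-box factor of muscle progenitors (chr1:18630596-18630895, plus). SOX2, a factor of pluripotent and neural progenitor cells (chr3:181711675-181711974, plus), lay in a replicate 1 region and was added after its values were seen, as a developmental gene outside the shared regions.
RUNX3: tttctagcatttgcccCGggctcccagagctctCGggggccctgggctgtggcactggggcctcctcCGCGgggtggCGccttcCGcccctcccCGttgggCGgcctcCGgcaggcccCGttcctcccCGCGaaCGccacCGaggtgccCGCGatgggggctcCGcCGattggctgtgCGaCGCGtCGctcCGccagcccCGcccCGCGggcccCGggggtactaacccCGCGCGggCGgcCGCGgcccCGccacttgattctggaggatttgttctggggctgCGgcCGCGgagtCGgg
PAX7: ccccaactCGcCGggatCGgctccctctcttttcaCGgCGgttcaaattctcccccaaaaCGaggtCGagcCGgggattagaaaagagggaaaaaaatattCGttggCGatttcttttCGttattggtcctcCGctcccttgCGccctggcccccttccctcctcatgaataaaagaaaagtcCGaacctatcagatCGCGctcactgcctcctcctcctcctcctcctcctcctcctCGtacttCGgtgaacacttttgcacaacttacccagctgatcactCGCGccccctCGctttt
SOX2: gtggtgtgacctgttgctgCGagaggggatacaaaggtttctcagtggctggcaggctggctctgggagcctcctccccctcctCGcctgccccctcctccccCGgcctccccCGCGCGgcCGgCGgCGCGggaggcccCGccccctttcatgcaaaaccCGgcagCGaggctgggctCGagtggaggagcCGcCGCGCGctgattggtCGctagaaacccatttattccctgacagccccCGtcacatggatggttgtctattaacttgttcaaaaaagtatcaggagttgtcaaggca

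The starts in replicate 1 regions ranged widely in CpG content. FLRT1 held 52 CpG dinucleotides in 300 bases, SLC34A2 38 and SLC35A4 33. SLC39A11 held 14, IL16 9 and GRIN2D 8. The number of CpG dinucleotides divided by the number that the C and G content predicts (observed over expected) was 1.08 in FLRT1 and 0.28 in GRIN2D. So the same kind of region held both CpG-rich and CpG-poor starts. The shared-region starts of RUNX3 and PAX7 held 38 and 21 CpG dinucleotides and SOX2 held 20.

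The H3K27me3 of these regions was modest. To compare libraries, the total signal of a region was divided by the median total signal of the shared regions in the same library, since the authors' signal was scaled differently in each. The region that holds the start of FLRT1 (chromosome 11, 64024345 to 64041966) reached 30.7% of that median in control replicate 1 and 43.8% in succinate replicate 1, with 14149 and 17622 bp covered. The region at IL16 reached 46.9% and 40.2%, and that at SOX2 24.2% and 20.6%. By the rule that chose them, none of the 3 had a peak in control replicate 2 or succinate replicate 2. The shared region at RUNX3 stood at 1781% and 2002% in control replicates 1 and 2 and at 2133% and 2300% in succinate replicates 1 and 2. RUNX3 was picked for the highest signal rank among developmental transcription factors in shared regions. It is thus an extreme and not a typical shared region.

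Over all members the signal was also modest. The total signal of a replicate 1 region had a median of 21.9% of the shared median in control replicate 1 (lowest 9.86%, highest 83.3%) and 22.6% in succinate replicate 1 (lowest 17.3%, highest 89.4%). Signal per covered base was also lower, with a median of 17.2 steps in control replicate 1 against 26.3 in shared regions, and 21.7 against 36.4 in succinate replicate 1. A step is the smallest unit of which all signal heights of a library are whole multiples. Regions of control replicate 1 alone were weaker again, at a median of 13.2%. Regions without a replicate 2 peak are bound to be weak where the replicate 2 lists stop at a higher signal, so these values only describe the choice.

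The replicate 2 lists stopped higher. Their weakest peaks stood at 39.0% of the shared median in control replicate 2 and 34.4% in succinate replicate 2, against 9.85% in control replicate 1 and 17.3% in succinate replicate 1. Of the 2873 replicate 1 regions, 2389 (83.2%) lay below both replicate 2 limits in both replicate 1 libraries. Only 97 (3.38%) lay above both limits in both replicate 1 libraries. These 97 were longer, at a median of 16960 bp against 8331 bp for the 2389, and 34.02% of them lay within 10 kb of a shared region. The plot of signal by region set shows most members below both limits. Read depth is unknown for peak lists, and the part of depth or threshold in the absence from replicate 2 was not tested. When 5531 peaks of highest total signal were taken from each list, the number in the shortest, 56 regions had the replicate 1 pattern, and 2543 of the 2873 members had no peak left in either replicate 1 library. Without succinate replicate 1 the count became 10591, since the rule then has 1 condition fewer and admits the regions of control replicate 1 alone.

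**Figure D1:**
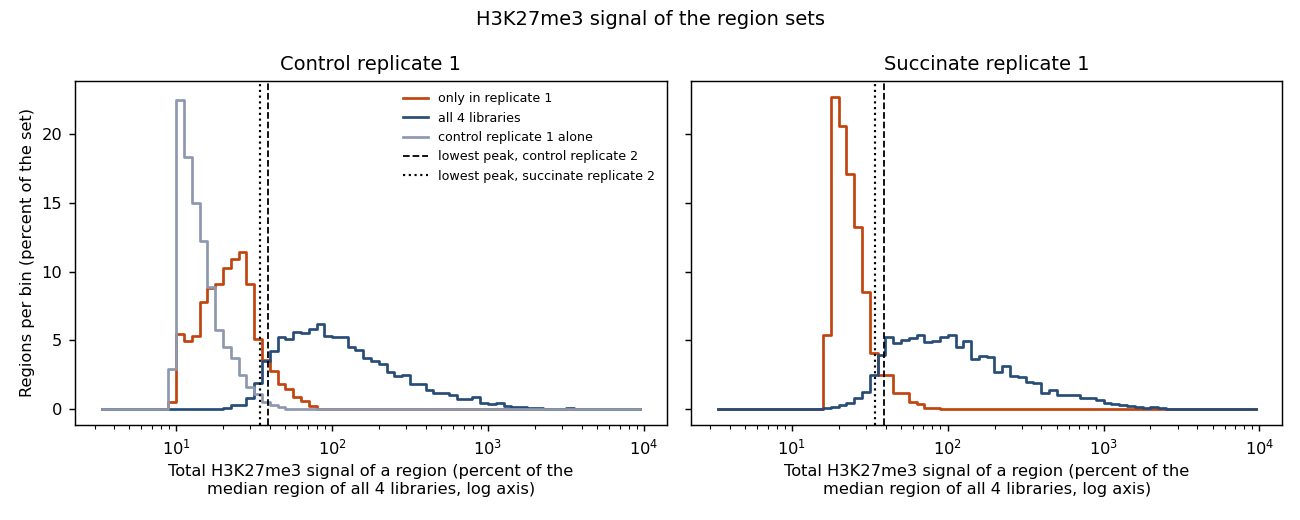
Total H3K27me3 signal of each region, as a percent of the median region of all 4 libraries (log axis), against the percent of each region set per bin, in control replicate 1 (left) and succinate replicate 1 (right). The replicate 1 regions (medians 21.9% and 22.6%) mostly sit left of the dashed and dotted lines, which mark the weakest peak of control replicate 2 (39.0%) and succinate replicate 2 (34.4%), and the regions of control replicate 1 alone lie further left.

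At the edge of the rule, the weakest member (chromosome 15, 84865658 to 84875935) stood at 9.86% of the shared median in control replicate 1 and at 19.3% in succinate replicate 1. The next weakest (chromosome 1, 4393767 to 4402197) stood at 9.87% and 25.5%. The regions kept out by the least replicate 2 cover were longer and stronger. That on chromosome 20 from 18077731 to 18103477 had 7382 of its 25747 bp under a peak of control replicate 2, and stood at 86.1% and 82.0% in the replicate 1 libraries.

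Replicate 1 regions were short domains. Their median length was 8859 bp (lowest 2036, highest 37715), against 25480 bp for shared regions and 4997 bp for regions of control replicate 1 alone. Only 51 members were longer than 20 kb, while 2697 of the 4169 shared regions were. Most were simple: 2722 members consisted of 1 peak in each replicate 1 library. Because members were merged from overlapping peaks, the peaks of both libraries share bases in every member by construction. The Jaccard index (shared bases over bases covered by either) had a median of 0.704 within members and 0.844 within shared regions. Across the 2873 members the total signals of control replicate 1 and succinate replicate 1 had a Spearman rho of 0.381 and, on a log10 scale, a Pearson r of 0.432. These are descriptions across regions that share both libraries.

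The longest members show what such a domain looks like. The longest, on chromosome 22 from 17157292 to 17195006, overlapped HDHD5 and ADA2, an extracellular adenosine deaminase, with 15927 bp covered in control replicate 1 and 37715 bp in succinate replicate 1. The next, on chromosome 18 from 62592747 to 62625953, overlapped no protein-coding gene and had 25040 and 28693 bp covered. It also had the highest signal rank of all members, at 77.4% and 85.0% of the shared median. The third, on chromosome 22 from 48062219 to 48092848, was again outside protein-coding genes, with 22213 and 30630 bp. The fourth lay in FAM107B on chromosome 10 and went the other way, with 26042 bp in control and 10360 bp in succinate. The fifth, on chromosome 1 from 42126558 to 42156952, overlapped GUCA2B, which encodes the gut peptide uroguanylin, with 21028 and 28658 bp.

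Other members of high signal included a region in HRH1, the histamine H1 receptor gene (chromosome 3, 11150205 to 11173556). A further pair, chromosome 7, 5104086 to 5128913, and chromosome 18, 48953776 to 48980972, overlapped no protein-coding gene. The HRH1 region stood at 79.4% of the shared median in control replicate 1 and 69.9% in succinate replicate 1. The one on chromosome 18 lay 4901 bp from a shared region, while that on chromosome 7 lay 217805 bp from one. The longest members outside genes also included chromosome 19 from 41497946 to 41526005, with 22169 and 18958 bp covered.

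Treatment could be set side by side in replicate 1 only, with 1 library each and hence no test. Members were covered over a median of 6452 bp in control replicate 1 and 8188 bp in succinate replicate 1, and the median log2 ratio of succinate to control within a member was 0.27. Over shared regions it was 0.05. Covered length was at least 2-fold longer in succinate in 366 members (12.7%) and at least 2-fold shorter in 37 (1.29%). Over all 8493 regions with peaks in both libraries, 5.97% were longer and 1.71% shorter by this rule. Peaks of both libraries chose the members. Their weakest peaks differ, at 9.85% of the shared median in control replicate 1 and 17.3% in succinate replicate 1. Nothing is therefore read from the difference in shares. In total signal relative to the shared median the log2 ratio was 0.11, with 180 members (6.27%) at least 2-fold higher and 64 (2.23%) at least 2-fold lower in succinate, against 3.56% and 2.70% of all 8493 regions. At equal numbers of peaks the ratio of covered length was 0.020.

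The members with the largest ratios were on chromosome 7 in SLC26A5, the gene of the cochlear motor protein prestin, with 2231 bp in control and 19747 bp in succinate, in MAP2K3, a kinase of the p38 pathway, with 3674 and 22087 bp, and in ERG, an ETS transcription factor of endothelium, with 1826 and 9961 bp. At the other end stood 3 members outside protein-coding genes. That on chromosome 16 from 9167389 to 9184986 had 17598 bp in control and 4413 bp in succinate, that on chromosome 2 from 68921517 to 68938602 had 17086 and 4290 bp, and that on chromosome 20 from 262395 to 270850 had 8298 and 2244 bp. In each of these 6 the library with the shorter cover was close to its lower signal limit, at 10.1% to 11.2% of the shared median in control for the first 3 and 17.6% to 18.3% in succinate for the others.

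The distance from replicate 1 regions to the shared domains varied widely. The median distance to the nearest shared region was 58784 bp, and 660 members (22.97%) lay within 10 kb of one and 1360 (47.3%) within 50 kb. For regions of control replicate 1 alone the median was 155240 bp, and 15.2% lay within 10 kb. There were 248 members (8.63%) more than 1 Mb from any shared region. Between members, the median distance to the nearest other member was 99907 bp, and 385 (13.4%) lay within 10 kb of another member. The distances that random positions would give were not computed, so neither nearness nor separation is read from these values.

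By chromosome, the members followed the shared regions over most of the genome. Density was 0.931 members and 1.35 shared regions per Mb over the 24 chromosomes, and over the 22 autosomes the densities had a Spearman rho of 0.828, a description of chromosomes within the same libraries. It was highest on chromosome 19 (2.00 per Mb), chromosome 20 (1.93) and chromosome 10 (1.65), and on the autosomes lowest on chromosome 4 (0.331). The balance differed by chromosome. On chromosome 18 there were 98 members and 62 shared regions, and on chromosome 13, 95 and 72. On chromosome 20 there were 124 members and 258 shared regions, and on chromosome 17, 106 and 211. The X chromosome had 30 members and 15 shared regions, the lowest densities apart from chromosome Y, which had none of either. Copy number per chromosome was not measured here, and its part was not tested.

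**Figure D2:**
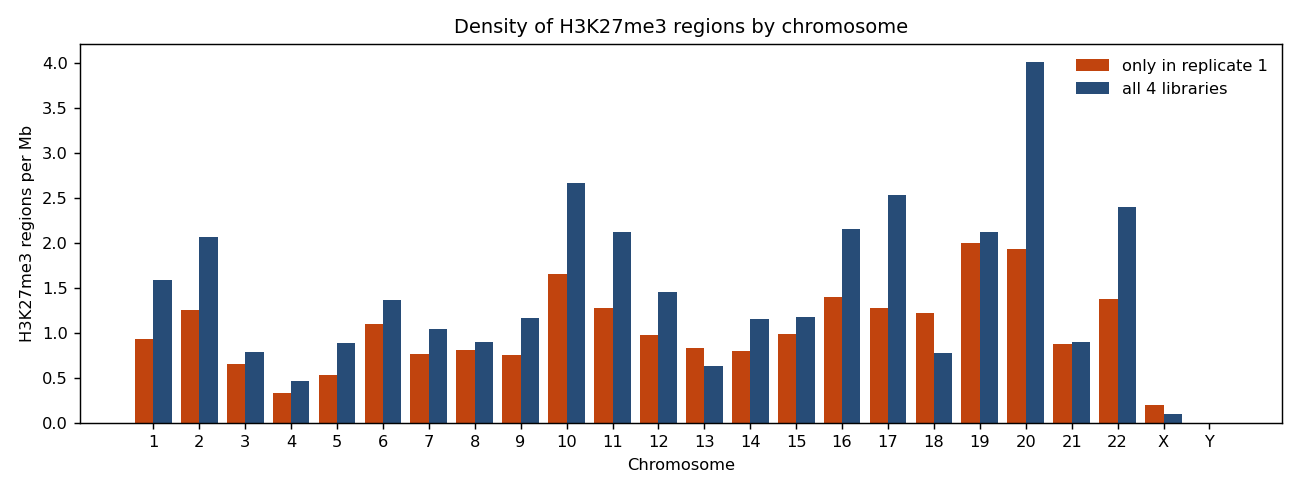
Number of H3K27me3 regions per Mb (vertical axis) on each chromosome, for replicate 1 regions and regions of all 4 libraries. Shared regions are denser on most chromosomes, such as chromosome 20 (4.01 against 1.93 per Mb), whereas replicate 1 regions are denser on chromosomes 13, 18 and X.

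Fewer replicate 1 regions than shared regions lay at genes, though they were also shorter, and no test was made. Of their bases, 37.4% were in protein-coding gene bodies, against 48.3% for shared regions, 36.9% for regions of control replicate 1 alone and 40.9% for the chromosomes. With genes of any type counted the share was 53.1%, close to the 54.3% of the chromosomes. There were 1305 members (45.4%) that overlapped a protein-coding gene and 792 (27.6%) that lay wholly inside one. A protein-coding gene start lay in 361 members (12.6%), in 31.8% of shared regions and in 8.14% of the regions of control replicate 1 alone.

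The members overlapped 1093 of 20037 protein-coding genes (5.45%), and shared regions overlapped 2825 (14.1%). The 403 genes that had both were 36.9% of the former and 14.3% of the latter, which leaves 690 genes with a replicate 1 region and no shared region. In most genes the member was a small island: the median share of the body under members was 10.9%, and the median gene was 68692 bp long. The corresponding values for shared regions were 80.6% and 25007 bp. Still, 155 genes had at least 50% of the body under members, and 74 were covered whole. A replicate 1 region held the start of 376 genes (2.37%) of the 15843 with an annotated start in the table, and a shared region held that of 10.1%. Without succinate replicate 1 the genes overlapped numbered 2461 and the genes with a start 934, and without succinate replicate 2 the latter were 577. The rule has 1 condition fewer in both settings, so higher counts follow from the rule.

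The genes with the most bases under members were long genes with several separate islands. DLGAP2, a scaffold protein of the postsynaptic density, held 10 members and 91391 bp, 9.41% of its body, and shared regions took another 11.2%. NAV2, a neuron navigator protein, held 5 members and 70881 bp. KAZN, which encodes kazrin of the desmosome, held 6 members with 63217 bp, and 23.6% of it lay under shared regions. ZFHX3, a zinc finger homeobox factor, had 61601 bp in 4 members and no shared region, with 12.1% of the gene covered in control replicate 1, 7.68% in succinate replicate 1, 0% in control replicate 2 and 2.04% in succinate replicate 2. ESRRB, an orphan nuclear receptor of pluripotent cells, was the most densely covered of the 10, with 60517 bp or 31.7%. The others were FSTL4, PDZD2, GABBR2, a subunit of the GABA-B receptor, MYO3B and the read-through gene ZNF664-RFLNA, which overlaps its component genes, with 46515 to 55892 bp each.

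Lists of genes were compared by how many were touched. Among 272 developmental transcription factors, 12 (4.41%) were overlapped by a member, near the 5.45% of all genes, while 152 (55.9%) were overlapped by a shared region. SIX6, a homeobox gene of the eye, lay whole in a member and was covered over 100% in both replicate 1 libraries. A gene that lies whole in a member has 0% in both replicate 2 libraries by the rule. SOX2 was covered over 100% and 98.3% in control and succinate replicate 1. ASCL4, a basic helix-loop-helix factor, also lay whole in a member, but its body was covered in succinate replicate 1 only (100% against 0% in control). Membership of the region therefore did not mean that both libraries covered the gene.

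Genes of excitable cells were touched more widely. Of 40 sodium and calcium channel subunits 12 (30.0%) were overlapped by members, of 103 neurotransmitter receptors 13 (12.6%), of 96 potassium channels 10 (10.4%) and of 147 cadherins and synaptic adhesion proteins 15 (10.2%). These genes are long, with median lengths of 111302, 52781, 39183 and 134760 bp against 24115 bp for all genes, and the part of gene length in these counts was not tested. Shared regions overlapped 60.0%, 30.1%, 38.5% and 28.6% of the same lists. Regions of control replicate 1 alone overlapped 37.5%, 25.2%, 21.9% and 25.9% of them, against 8.81% of all genes. The wider overlap was therefore not particular to the members. Among axon guidance genes members overlapped 5 of 69 (7.25%).

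Some of these genes were covered over much of their body. KCNN4, a calcium-activated potassium channel, had 61.5% of its body covered in control replicate 1 and 83.1% in succinate replicate 1. ADRB1, the beta-1 adrenergic receptor, had 64.7% and 91.0%, and CHRNB2, a nicotinic acetylcholine receptor subunit, 48.7% and 48.6%. SLITRK5, a neuronal adhesion protein, had 91.2% and 93.9%. None of these 4 genes was covered in either replicate 2 library, which the rule fixes for the part of a gene inside a member. KCNA6, a voltage-gated potassium channel, had 32.9% and 39.4% in the replicate 1 libraries and 4.64% in control replicate 2, since a shared region touched it as well. GABRQ, a GABA-A receptor subunit, had 32.3% and 36.2%, NLGN3, a postsynaptic neuroligin, 35.9% and 21.6%, and LRFN1, a synaptic adhesion protein, 20.2% and 20.8%. SCN3B, a sodium channel beta subunit, had 19.2% and 32.8%, with 0% in replicate 2.

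In other genes of these lists the member was an addition to a shared domain. NTN1, the guidance cue netrin, had 15.2% under members and 68.2% under shared regions, and its H3K27me3 cover in control libraries 1 and 2 was 69.0% and 50.4%, and with succinate 69.5% and 57.8%. KCNC1 had 19.5% under a member and 48.4% under shared regions. CACNA1B, the N-type calcium channel, held 5 members over 15.1% of its body, with 35.5% under shared regions. CACNG3, an auxiliary subunit of AMPA receptors, had 13.3% under a member and none under a shared region. PLXNA4 and SLIT3, a semaphorin receptor and a Robo ligand, had 4.11% and 3.40% under members.

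Matrix genes and solute carriers were also touched above the share of all genes. Of 121 extracellular matrix proteins and proteases 22 (18.2%) were overlapped by members, with a median gene length of 84191 bp. MMP19, a matrix metalloproteinase, was covered over 83.1% in control replicate 1 and 97.4% in succinate replicate 1. COL7A1, the collagen of anchoring fibrils, had 26.6% and 43.4%, and LAMB3, a laminin chain of skin basement membrane, 36.8% and 35.5%. Of 363 solute carriers 36 (9.92%) were overlapped, with a median gene length of 38317 bp against 24115 bp for all genes. The part of gene length was not tested. Of these 36, 28 had no shared region, as had 690 of all 1093 genes with a member. Shared regions overlapped 16.3% of the solute carriers and 14.1% of all genes. Regions of control replicate 1 alone overlapped 33.9% of the matrix list and 11.8% of the solute carriers, against 8.81% of all genes. SLC7A3, a cationic amino acid transporter, was covered whole in both replicate 1 libraries, SLC35A4 over 100% and 76.4%, and SLC52A1, a riboflavin transporter, over 33.3% and 64.2%. None of these 6 genes was covered in a replicate 2 library, which the rule fixes for SLC7A3 and SLC35A4, as they lie whole in a member.

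Signalling and immune genes lay near the background. Members overlapped 6 of 82 secreted signalling ligands (7.32%) and 13 of 201 cytokines, chemokines and receptors (6.47%). FGF19, a hormone that restrains bile acid synthesis, had 12.3% of its body covered in control replicate 1 and 33.8% in succinate replicate 1. SFRP1, a WNT antagonist, had 28.7% under a member and 25.3% under a shared region, and BMP8B 18.3% under a member. IFNL1, a lambda interferon, and CCL21, a lymphoid chemokine, were covered whole in both replicate 1 libraries and, by the rule, not in replicate 2. IL17F had 61.1% and 55.1%.

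The large tandem gene families were rarely touched. Members overlapped 6 of 390 olfactory receptors (1.54%), 11 of 509 zinc finger genes of the ZNF series (2.16%) and 3 of 149 keratins and keratin-associated proteins (2.01%), while shared regions overlapped 1.28%, 3.93% and 26.8%. Median gene lengths were 2985, 23605 and 1149 bp, and near-identical copies in these families may share reads. The hair keratin gene KRT32 was covered over 64.3% and 98.1% in the replicate 1 libraries, KRTAP10-9 whole, and KRT73 had 22.8% under a member and 62.7% under shared regions. OR6B2 and OR2Y1 lay whole in members, but were covered in succinate replicate 1 only, and OR4D1 was covered over 30.2% and 50.9%. ZNF862, ZNF334 and ZNF541 had 23.7% to 30.6% of their bodies under members.

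Of 55 cytochrome P450 enzymes 3 (5.45%) were overlapped, the same share as of all protein-coding genes (5.45%). CYP11B1, which completes cortisol synthesis in the adrenal cortex, was covered over 94.4% and 95.2% in the replicate 1 libraries and not in replicate 2. CYP27C1 had 37.4% under members and 21.8% under a shared region, and CYP11A1, which starts steroid synthesis, 19.7% and 41.1%. None of 30 genes of PRC2 subunits and JmjC demethylases, none of the liver genes and none of the housekeeping genes was overlapped by a member. Shared regions overlapped no gene of these lists either, so this was not particular to the members. Over all genes the shares were 5.45% for members and 14.1% for shared regions, and lists of 30, 12 and 10 genes are short for such shares.

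**Figure D3:**
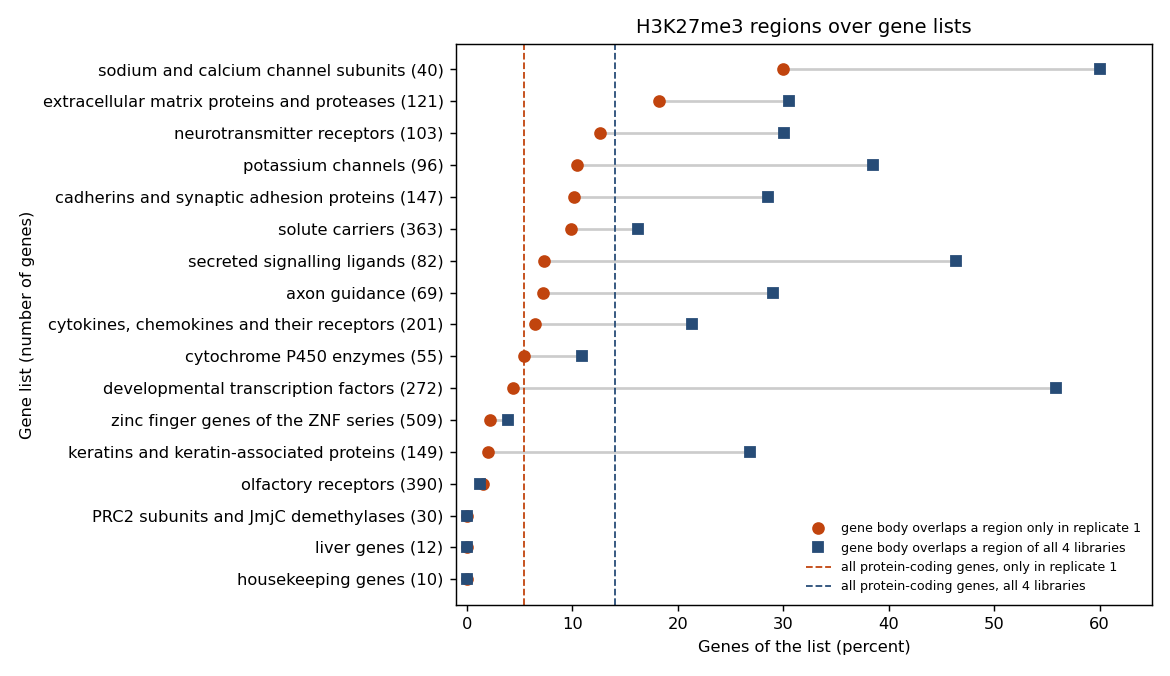
Percent of the genes in each list (number of genes in brackets) whose body overlaps a replicate 1 region (circles) or a region of all 4 libraries (squares), with dashed lines at the shares of all protein-coding genes (5.45% and 14.1%). Developmental transcription factors stand at 4.41% and 55.9%, and sodium and calcium channel subunits at 30.0% and 60.0%.

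The share of miRNA genes in members was near the share of the chromosomes that members span. Of 1562 miRNA hairpins in the RefSeq table, 16 (1.02%) overlapped a member and 216 (13.8%) a shared region, while members span 0.890% and shared regions 4.67% of the chromosomes. The mature sequences of the 3 in the members of highest signal rank are shown to identify them, a choice made after the values were seen, with bases 2 to 8, the seed that pairs with targets, in capitals.
hsa-miR-378c: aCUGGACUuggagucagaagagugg
hsa-miR-4260: cUUGGGGCauggaguccca
hsa-miR-4673: uCCAGGCAggagccggacugga
Their seeds differ. The member at MIR378C on chromosome 10 was 22015 bp long, with 10929 bp covered in control and 21954 bp in succinate replicate 1. That at MIR4260, which is the LAMB3 region, had 21286 and 19625 bp, and that at MIR4673 on chromosome 9 had 14820 and 16204 bp. Of the lncRNA genes, 742 of 18303 (4.05%) were overlapped by members and 12.7% by shared regions.

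The CpG content of starts is a property of sequence that the choice of regions did not use. It was computed for 22199 annotated starts of protein-coding genes, where a gene may have several. The 491 starts in replicate 1 regions had a median observed over expected ratio of 0.67 (95% interval of the median from order statistics 0.63 to 0.71), against 0.62 (0.59 to 0.65) for 2163 starts in shared regions and 0.75 (0.75 to 0.76) for 18367 starts in no H3K27me3 region. Starts are not independent replicates, and no test was made. The share of starts with a ratio of 0.6 or more was 56.0% in replicate 1 regions, 51.5% in shared regions and 63.9% outside regions. The share under 0.3 was 24.8%, 25.7% and 20.7%. Replicate 1 regions therefore lay between the other sets in the median and the high share, and their interval overlapped that of the shared regions. The 750 starts in regions of control replicate 1 alone had a median of 0.70 (0.67 to 0.73). Of these starts, 61.2% were at 0.6 or more and 19.5% under 0.3. Their median and high share lay between as well, so this position was not particular to replicate 1 regions. Median GC content was 64.3% in replicate 1 regions, 64.7% in shared regions and 62.0% outside regions. The letters CG occurred in 99.2% of the starts in replicate 1 regions and in 98.0% of all starts, on both strands alike.

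**Figure D4:**
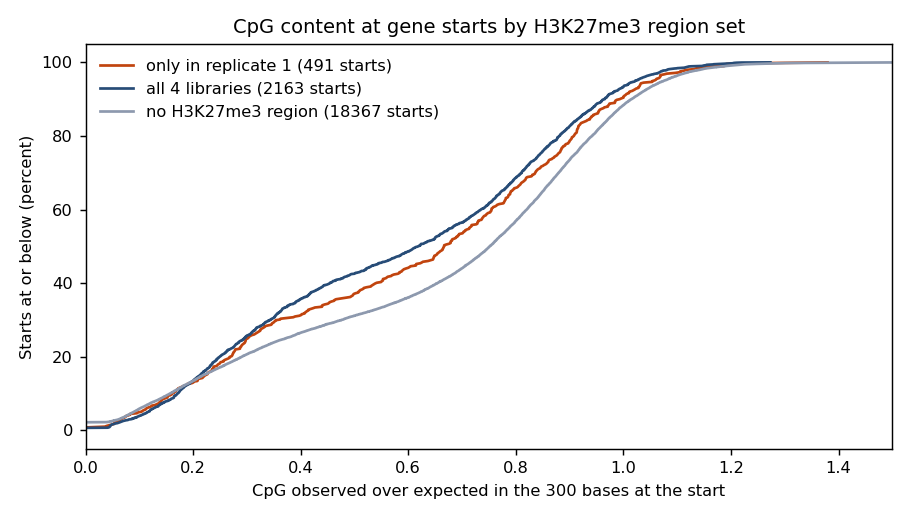
Cumulative share of annotated protein-coding gene starts (vertical axis, percent) at or below each CpG observed over expected ratio (horizontal axis) in the 300 bases at the start, for starts in replicate 1 regions, in regions of all 4 libraries and in no H3K27me3 region. The curve of replicate 1 regions (median 0.67) runs mostly between those of shared regions (0.62) and of starts outside regions (0.75).

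Ksu is the readout that the rule did not use. Ksu peaks covered 3.95% and 6.65% of the bases of replicate 1 regions in control replicates 1 and 2, and 11.8% and 16.9% in succinate replicates 1 and 2. The treatments did not overlap, but Ksu peaks also covered more of the chromosomes in succinate, 2.60% and 6.004% in the control libraries against 6.10% and 10.7%. Relative to the chromosomes the cover of the members was 1.52- and 1.11-fold for control libraries 1 and 2, and 1.94- and 1.58-fold for succinate libraries 1 and 2. On the log2 scale these ratios averaged 0.37 ± 0.32 in control and 0.81 ± 0.21 in succinate (SD, n = 2 each). Succinate exceeded control by 0.44, with a pooled SD of 0.27 (exact two-sided permutation p = 0.333, the smallest that 2 against 2 libraries allow, and 0.5 after Benjamini-Hochberg adjustment over 3 Ksu tests). At equal numbers of Ksu peaks per list the difference was 0.87.

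The surroundings of the regions showed the same order of libraries. In flanks as long as the region on each side, Ksu cover was 2.93% and 5.89% for control, 9.15% and 14.7% for succinate. The ratio of members to flanks was 1.35 and 1.13 for control, 1.29 and 1.15 for succinate, so relative to flanks the treatments overlapped. With the flanks as expectation, a choice made after seeing the data, the difference between treatments was -0.016 (exact permutation p = 1). Members were covered more than their flanks in 4 of 4 libraries, by a mean log2 ratio of 0.29 ± 0.13 (SD, n = 4, exact two-sided sign-flip permutation p = 0.125, the smallest possible, adjusted 0.375). For the 56 regions at equal numbers of H3K27me3 peaks this ratio was 0.15.

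Ksu cover of members and of shared regions was close in each library. Shared regions were covered over 3.77%, 6.46%, 12.8% and 16.4% in the same order of libraries, and 1.31, 1.16, 1.24 and 1.10 times their own flanks. The mean log2 ratio of members to shared regions was 0.010 ± 0.080 (SD, n = 4, exact two-sided sign-flip permutation p = 0.875, adjusted 0.875, where the smallest possible is 0.125), higher in 3 of 4 libraries, and its sign changed with the libraries used (-0.0088 without Ksu control replicate 1). Regions of control replicate 1 alone, the weakest in H3K27me3, had the highest Ksu cover, at 5.30% and 8.12% (control), 13.3% and 17.2% (succinate), a description without a test.

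**Figure D5:**
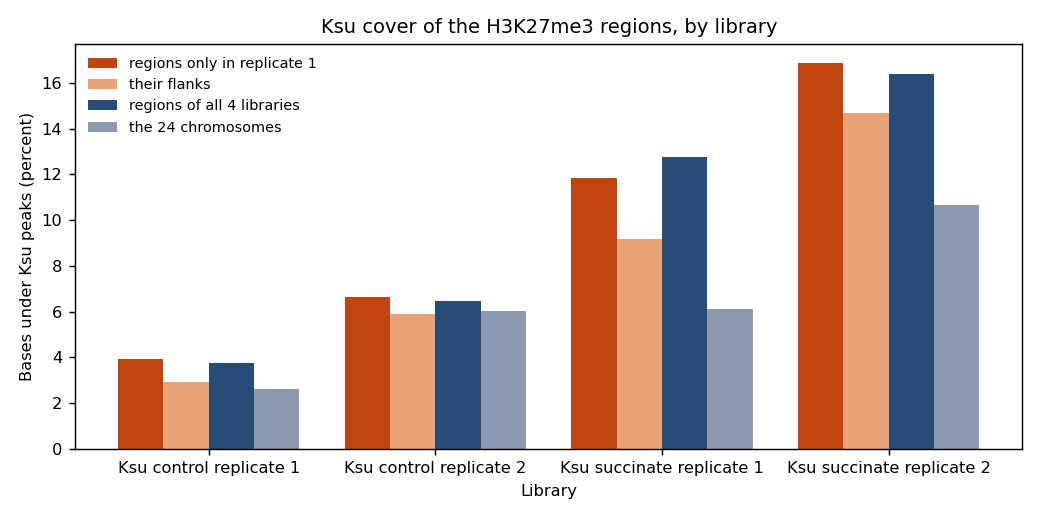
Percent of bases under Ksu peaks (vertical axis) in each of the 4 Ksu libraries, for replicate 1 regions, the flanks of the same length beside them, regions of all 4 H3K27me3 libraries and the 24 chromosomes. Replicate 1 regions stand above their flanks in every library (1.13 to 1.35 times) and close to the shared regions.

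Counted by region, a Ksu peak overlapped 789 (27.5%) and 1997 (69.5%) of the members in control and 2249 (78.3%) and 2675 (93.1%) in succinate. For shared regions, which are longer, the shares were higher in all 4 libraries, at 51.6%, 92.2%, 94.6% and 99.3%, and the part of length was not tested. A Ksu peak in all 4 libraries was found in 549 members (19.1%), in 48.4% of shared regions and in 24.2% of all regions. No Ksu peak in any library was found for 41 members (1.43%), against 1.93% of all regions. Ksu peaks in both succinate libraries and in neither control library were found in 428 members (14.9%), against 12.4% of all 16111 H3K27me3 regions. The reverse was found in 6 members, 0.209% against 0.223% of all regions. Both shares lay near those of all regions. Peaks in both replicate 2 libraries and neither replicate 1 library were found in 275 members (9.57%), against 8.88% of all regions. The Ksu lists hold from 76702 to 629903 peaks, and the part of list length in these counts was not tested.

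Single members differed widely in Ksu. Of the longest, the HDHD5 and ADA2 region had 2.45% and 7.45% of its bases under Ksu peaks in control and 4.85% and 15.98% with succinate, and the GUCA2B region had 0% in both control libraries and 5.91% and 15.7% in succinate. The FAM107B region, which was shorter in H3K27me3 with succinate, had 0% and 7.09% in control and 16.6% and 26.7% in succinate. At IL16 cover was 10.8% and 2.91% for control, 9.34% and 29.3% for succinate, so the treatments overlapped. No single region was tested, with 2 Ksu libraries per treatment.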

How the data were processed

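Peak lists of 8 libraries were used, 1 list per library. The authors made them with SEACR on hg38, per the submitters' processing notes, and the names of the deposited files carry the word stringent. The aligner, scaling, control track and threshold are not given in the sources used here. The deposited signal values (total and highest signal per peak) are scaled per library. In each library 100% of the highest signals were whole multiples of 1 step, within 0.02 of a whole number, and depth is unknown. The lists hold 5531 to 19133 H3K27me3 peaks and 76702 to 629903 Ksu peaks on the 24 chromosomes. Lengths, cover and distances were computed with Python 3.11.15, numpy 2.4.6 and pandas 2.3.3, and exact tests and intervals with scipy 1.17.1; the functions were tested on simulated data. Gene extents and starts came from RefSeq tables of GRCh38.p14, and 15843 of 20037 protein-coding genes had a start. Coordinates count from 1. A chromosome's size was taken as the furthest position reached by a gene or peak. No genome was used here, so the GC content of whole regions was not computed. With 2 libraries per treatment no test could reach 0.05, and p-values measure only the spread between these libraries.

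The members and gene lists were chosen with earlier results of these data known. Regions named were the 5 longest, the 5 of highest mean signal rank, the 3 longest outside protein-coding genes and the 3 at each end of the covered-length ratio. Genes named were the 10 with the most bases under members and up to 3 per list by share of the body. Alternatives changed the peaks used, their joining, presence, the libraries, the flanks and the expectation.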

Additional observations from a re-analysis of the deposited data

How the results depend on the processing

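Over 11 results, 102 alternative values were computed, of which 58 stayed within their limits (1.5 times for counts, the 95% interval for medians and shares, direction for Ksu), 40 moved beyond them and 4 changed direction. The choice of peaks mattered most. At equal numbers of peaks there were 56 regions of median length 16092 bp, with 41.7% of bases in gene bodies, 32 genes, 9 genes with a start (CpG ratio 0.95) and 30.4% within 10 kb of a shared region. At a common floor of 330250 steps there were 14 regions of 18454 bp, with 50.2%, 10 genes, 3 starts (0.91) and 35.7%. This floor is equal in steps but not relative to the shared median. That median ranged from 526555 steps in control replicate 1 to 959145 steps in succinate replicate 2. With the 50% of peaks of highest signal there were 1349 regions of 15070 bp, with 39.4%, 697 genes and 17.0%. These settings use fewer peaks by construction. Joining peaks within 1 kb gave a median length of 9067 bp and 21.0% within 10 kb, and presence at 50% cover gave 18.8%. Genes of any type gave 53.1% of bases, a minimum of 10% of the body 577 genes, and 50 kb a near share of 47.3%. The log2 ratio of succinate to control replicate 1 was 0.11 when total signal took the place of covered length, and for covered length it was 0.020 at equal numbers, 0.023 at a common floor and 0.19 with the 50% of peaks of highest signal. The cause was not tested.

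When each H3K27me3 library was left out, the number ranged from 3288 to 10591 (without succinate replicate 1). Genes ranged from 1211 to 2461 and starts from 399 to 934. Each library left out takes 1 condition from the rule, so these higher counts follow from the rule. Median length ranged from 5282 to 9487 bp and gene body share from 37.2% to 37.8%. The CpG ratio ranged from 0.64 to 0.70 and the near share from 18.9% to 27.8%. When each Ksu library was left out, the Ksu treatment difference was lowest at 0.21, when control replicate 2 was dropped, and highest at 0.66, when control replicate 1 was, the ratio to flanks ranged from 0.25 to 0.33 and the ratio to shared regions from -0.0088 to 0.050. At equal numbers of Ksu peaks the treatment difference was 0.87, and without division by the share of the chromosomes 1.46. For regions at equal numbers of H3K27me3 peaks the ratio to flanks was 0.15 and the ratio to shared regions -0.030, and the treatment difference was -0.016 with flanks as the expectation. For shared regions in their place, also chosen after seeing the data, it was 0.52. With the replicate number as a block the Ksu treatment difference stayed at 0.44 (exact permutation p = 0.5, the smallest for 2 pairs). The labels do not say that a number marks a shared culture or day, and the replicate deviations of Ksu cover over members correlated at 0.148.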
